A study of Mus musculus with 7 samples.

Results

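The genes described here encode tandem-pore (K2P) potassium channels. They are Kcnk12 and 7 further members of its family, Kcnk1, Kcnk2, Kcnk3, Kcnk4, Kcnk9, Kcnk10 and Kcnk13, so 8 of the 22248 genes in the gene table. The set was selected on measured values: Kcnk12 was chosen by its low CPM in every AM6545 library, so its difference between the groups is described without a test. The other 7 were taken as its relatives. RNA was sequenced from hippocampal synaptoneurosomes, a tissue fraction enriched in resealed synapses that hold both presynaptic and postsynaptic material. The mice were wild-type C57Bl/6J females. One group received AM6545 sub-chronically (n = 4 libraries, replicates B, D, E and F), and the other received vehicle (n = 3, replicates B, D and E). AM6545 is an antagonist of the CB1 cannabinoid receptor that enters the brain poorly. Dose, age and how many mice went into a library are not given in the sources used here, so p-values measure the spread between these libraries, which may be partly technical.

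K2P channels carry background, or leak, potassium current. They are open near the resting potential and hold a neuron's membrane potential at negative values. Each subunit contributes a pair of pore loops, and subunits join as dimers. The members fall into subfamilies: THIK (Kcnk12, Kcnk13), TWIK (Kcnk1), TREK and TRAAK (Kcnk2, Kcnk10, Kcnk4) and TASK (Kcnk3, Kcnk9). In the brain they are known as targets of volatile anaesthetics, of extracellular acid, of membrane stretch and of receptors that couple to G proteins.

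The pore loops are the sequence that all members share, and the stretches that encode them are shown for Kcnk12, its closest relative Kcnk13, the most abundant member Kcnk1, and the members Kcnk3 and Kcnk4, to which the results below return. They were read from GENCODE M21 coding sequences, 5′ to 3′. Capitals mark the codons of the selectivity filter, the signature threonine, any residue, glycine, an aromatic residue or leucine, glycine, searched in frame on the coding strand. Each of the 8 members held exactly 2 matches. Among 21901 protein-coding genes, 28 (0.128%) held 2 or more.
Kcnk12 first loop: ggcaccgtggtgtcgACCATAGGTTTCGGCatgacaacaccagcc
Kcnk13 first loop: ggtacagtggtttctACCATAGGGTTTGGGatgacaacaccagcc
Kcnk1 first loop: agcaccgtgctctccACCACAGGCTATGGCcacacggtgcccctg
Kcnk3 first loop: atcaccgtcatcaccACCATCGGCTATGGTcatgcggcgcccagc
Kcnk4 first loop: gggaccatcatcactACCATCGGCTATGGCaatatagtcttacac
Kcnk12 second loop: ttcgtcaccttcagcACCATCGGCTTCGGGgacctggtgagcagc
Kcnk13 second loop: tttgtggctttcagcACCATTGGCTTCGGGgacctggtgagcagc
Kcnk1 second loop: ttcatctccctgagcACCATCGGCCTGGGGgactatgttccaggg
Kcnk3 second loop: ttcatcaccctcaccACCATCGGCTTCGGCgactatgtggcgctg
Kcnk4 second loop: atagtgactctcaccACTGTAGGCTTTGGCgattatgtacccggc

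The Kcnk12 stretches lie at coding bases 370 to 414 and 751 to 795, and the Kcnk13 stretches at 313 to 357 and 694 to 738. Kcnk13 had the same base as Kcnk12 at 38 of 45 positions of the first stretch and 40 of 45 of the second. For the other 6 members the counts were 22 to 26 and 25 to 32. Over the whole coding sequence Kcnk12 was 69.1% identical to Kcnk13 and 56.9% to 64.7% identical to the others. No run of 31 bases in the main transcript of Kcnk12, Kcnk13 or Kcnk4 occurred in the transcripts of any other gene.

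Estimated counts summed to between 19174649 and 25894733 per library. The members other than Kcnk1 had from 173.7 to 789 counts in a library, and Kcnk1 had from 3116 to 4530. Counts were scaled to a common library size by TMM and are given as CPM. Vehicle replicate B stood apart from the other libraries, at 41.1 on the first principal component, where the others lay between -21.7 and 11.5. The level of a gene relative to the other libraries also moved with its GC content. The slope was -0.12 to -0.03 log2 units per 10 percentage points of GC in AM6545 libraries and 0.05 to 0.14 in Vehicle libraries, without overlap. Markers of hippocampal principal neurons were all detected (11 of 11 passed the filter on low counts).

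Kcnk12 encodes THIK-2, a subunit that gives little or no current when expressed alone, is held back inside cells and can pair with the THIK-1 subunit encoded by Kcnk13. The gene (ENSMUSG00000050138.9) lies on chromosome 17 from 87745801 to 87797994 on the minus strand (GRCm38, GENCODE M21), with 1 transcript of 2 exons. In AM6545 libraries it was at 11.7, 11.5, 11.7 and 12.97 CPM in replicates B, D, E and F. In Vehicle libraries it was at 22.7, 19.7 and 18.8 CPM in replicates B, D and E. Every AM6545 library lay below every Vehicle library, as the choice of the gene required. The means were 11.96 ± 0.679 CPM (SD, n = 4) and 20.4 ± 2.06 CPM (SD, n = 3), a log2 fold change of -0.77 (SE 0.11), or 41.3% lower.

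The transcript of Kcnk12 is 69.4% GC, above 99.96% of all genes tested. After GC and length correction, which removes from every library its own trend of level with GC content and transcript length, the log2 fold change of Kcnk12 was -0.37. Its corrected level was 3.62 to 3.84 log2 CPM in AM6545 libraries and 4.09 to 4.15 in Vehicle libraries, without overlap. Without Vehicle replicate B or any other single library, Kcnk12 differed from its value with all libraries by less than 1.5 times. Both are descriptions, because the gene was chosen for its low level in these same libraries.

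**Figure D1:**
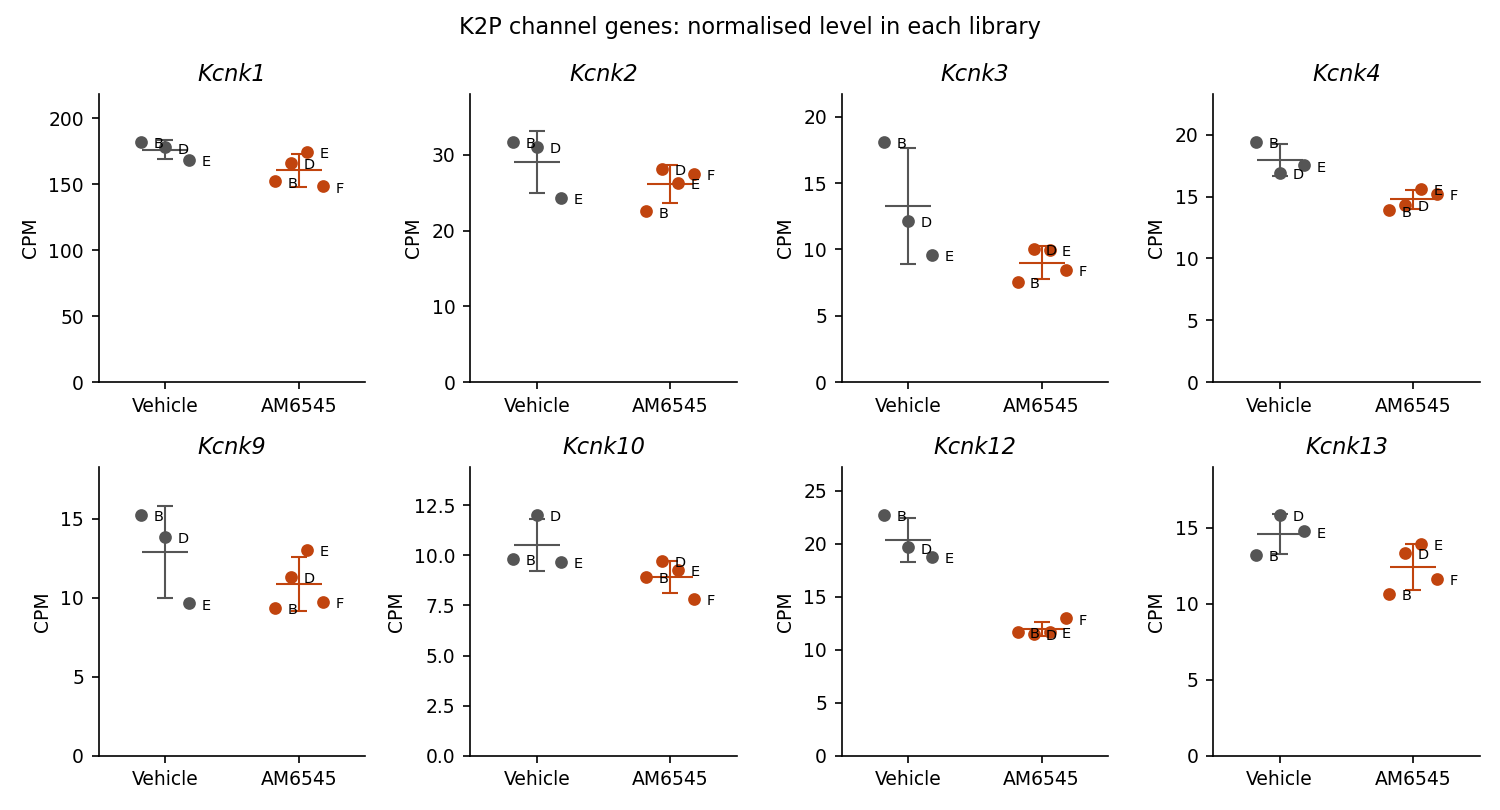
Normalised level (CPM) of the 8 K2P channel genes in each library, with the y axis from 0. Points are libraries lettered by replicate, and bars show the mean ± SD of the 3 Vehicle and 4 AM6545 libraries; the groups do not overlap for Kcnk12 and Kcnk4 and do for the other 6.

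All 7 other members had negative log2 fold changes, with a median of -0.24, where the median of all 14654 genes tested was 0.01 and 7125 of them were negative. None of these 7 passed an adjusted p of 0.05 (edgeR, 0 of 7), a threshold that 0.00682% of all genes passed. DESeq2 and limma-voom also called 0 of the 7. At an unadjusted p under 0.05 there were 2 members, Kcnk3 and Kcnk4, both lower, where 14.6% of all genes passed in either direction and 8.70% passed as lower. Kcnk4 was the 1 of the 7 whose AM6545 libraries all lay below all Vehicle libraries, which was so for 7.19% of all genes. Of the 8 members, 6 had their highest level in Vehicle replicate B and the other 2 in Vehicle replicate D. The share of all genes that were highest in these libraries is not given here, so this is a description. It also includes Kcnk12, which was chosen for its low level in AM6545 libraries. RNA was taken from a bulk fraction, so less RNA per nerve ending and fewer nerve endings of one kind cannot be told apart.

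**Figure D2:**
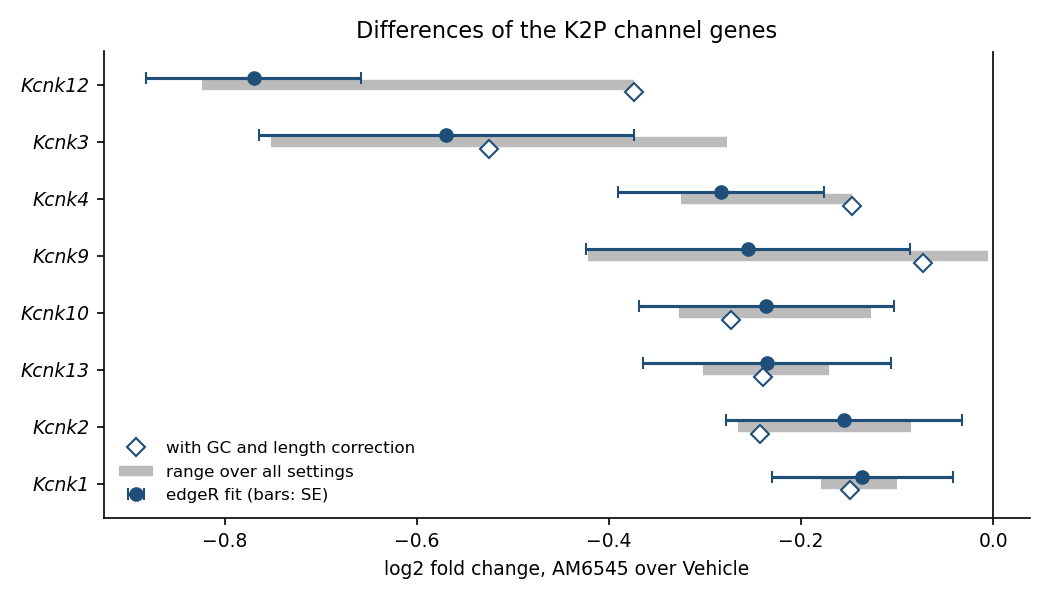
Log2 fold change of each member, AM6545 over Vehicle (x axis), from edgeR with its SE (circles and bars), after GC and length correction (diamonds), and over all settings tried (grey). Every setting gave a value below 0 for each member, the nearest to 0 being -0.0057 for Kcnk9; Kcnk12 moves from -0.77 to -0.37 with the correction.

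Kcnk13 encodes THIK-1, which in the brain is best known as the resting potassium channel of microglia. The gene lies on chromosome 12 from 99964499 to 100062682 on the plus strand. It was at 10.6, 13.4, 13.97 and 11.7 CPM in AM6545 replicates B, D, E and F, and at 13.2, 15.8 and 14.8 CPM in Vehicle replicates B, D and E. AM6545 replicates D and E lay inside the Vehicle range. The log2 fold change was -0.24 (SE 0.13, edgeR adjusted p 0.412) and did not move with the GC and length correction (-0.24). Within a library, the ratio of Kcnk12 to Kcnk13 in CPM per kilobase of transcript was 1.30 to 1.73 in AM6545 and 1.93 to 2.67 in Vehicle. This is a description that rests on how Kcnk12 was chosen. Microglia markers summed to 1328 to 1460 CPM in the AM6545 group and 1386 to 1789 CPM in the Vehicle group, with none at 0. Of the 15 markers 12 were negative, with a median log2 fold change of -0.22, and 7 had an unadjusted p under 0.05, all lower (8.70% of all genes passed as lower). With edgeR 0 of the 15 had an adjusted p under 0.05 and with limma-voom 0. DESeq2 called 2 of the 15, C1qc and Tyrobp, where it called 205 of all 14654 genes. The part of the microglia markers in the level of Kcnk13 was not tested.

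Kcnk1 encodes TWIK-1, a weakly active channel reported in astrocytes and neurons. It lies on chromosome 8 from 125995170 to 126030685 on the plus strand. It was at 152.3, 166.4, 174.7 and 148.5 CPM in AM6545 replicates B, D, E and F, and at 182.4, 178 and 168.6 CPM in Vehicle replicates B, D and E. AM6545 replicate E lay inside the Vehicle range and the other 3 lay below it. The log2 fold change was -0.14 (SE 0.09, edgeR adjusted p 0.510). Kcnk1 shares 179 exon bases with Gm45875 on the opposite strand, and whether strand was used in counting is not given in the sources used here, so its level is uncertain. Astrocyte markers summed to 4614 to 5733 CPM in the AM6545 group and 4825 to 6207 CPM in the Vehicle group (median log2 fold change -0.02 over 13 markers, none at 0).

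The TREK and TRAAK channels are opened by stretch, heat and polyunsaturated fatty acids. Kcnk4, which encodes TRAAK, a channel found at nodes of Ranvier, lies on chromosome 19 from 6923966 to 6934515 on the minus strand. It was at 13.9, 14.3, 15.6 and 15.2 CPM in AM6545 replicates B, D, E and F, and at 19.4, 16.9 and 17.5 CPM in Vehicle replicates B, D and E. The highest AM6545 library lay below the lowest Vehicle library. The means were 14.8 ± 0.794 CPM (SD, n = 4) and 17.97 ± 1.31 CPM (SD, n = 3), and the log2 fold change of -0.28 (SE 0.11) had an unadjusted p of 0.0208 and an adjusted p of 0.270 by edgeR. After the GC and length correction Kcnk4 was at -0.15 and the groups overlapped. Transcripts of Kcnk4 other than Kcnk4-201 share 587 exon bases with Catsperz on the same strand, so its level is uncertain.

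Kcnk2, which encodes TREK-1, lies on chromosome 1 from 189207930 to 189402273 on the minus strand. It was at 22.5, 28.1, 26.3 and 27.5 CPM in AM6545 replicates B, D, E and F, and at 31.8, 31.04 and 24.4 CPM in Vehicle replicates B, D and E. The groups overlapped because Vehicle replicate E lay below 3 of the AM6545 libraries. The log2 fold change was -0.16 (SE 0.12, edgeR adjusted p 0.558). It was -0.09 without Vehicle replicate B, -0.10 without AM6545 replicate B, -0.27 without Vehicle replicate E and -0.24 after the GC and length correction. Kcnk2 shares 604 exon bases with A430027H14Rik on the opposite strand, so its level is uncertain.

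Kcnk10, which encodes TREK-2, lies on chromosome 12 from 98429437 to 98578310 on the minus strand. It was at 8.91, 9.73, 9.27 and 7.83 CPM in AM6545 replicates B, D, E and F, and at 9.82, 12.01 and 9.69 CPM in Vehicle replicates B, D and E. Only AM6545 replicate D reached into the Vehicle range, at 9.73 CPM against 9.69 CPM in Vehicle replicate E. The log2 fold change was -0.24 (SE 0.13, edgeR adjusted p 0.426), and -0.13 without Vehicle replicate D. After the correction it was -0.27 (edgeR adjusted p 0.731), and all 4 AM6545 libraries lay below all 3 Vehicle libraries. The share of all genes that separate after the correction is not given here, so this is a description.

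The TASK channels are closed by extracellular acid and by receptors that signal through Gq, and are opened by volatile anaesthetics. Kcnk3, which encodes TASK-1, lies on chromosome 5 from 30588170 to 30625271 on the plus strand. It was at 7.53, 10.04, 9.97 and 8.44 CPM in AM6545 replicates B, D, E and F, and at 18.1, 12.2 and 9.58 CPM in Vehicle replicates B, D and E. Vehicle replicate B was far above the rest, and Vehicle replicate E lay below 2 AM6545 libraries. The means were 8.99 ± 1.22 CPM (SD, n = 4) and 13.3 ± 4.38 CPM (SD, n = 3), and the log2 fold change of -0.57 (SE 0.20) had an unadjusted p of 0.0129 and an adjusted p of 0.251 by edgeR.

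The value of Kcnk3 rested on 2 Vehicle libraries. Without Vehicle replicate B its log2 fold change was -0.28, and without Vehicle replicate E it was -0.75 with an edgeR adjusted p of 0.0293. In that fit 944 genes passed, where 1 passed with all libraries. The GC and length correction left -0.53. Kcnk3 shares 229 exon bases with Gm9899 on the opposite strand, and 6.48% of its runs of 31 bases occur in other genes, so its level is uncertain.

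Kcnk9, which encodes TASK-3, lies on chromosome 15 from 72501089 to 72546340 on the minus strand. It was at 9.34, 11.3, 13.0 and 9.71 CPM in AM6545 replicates B, D, E and F, and at 15.2, 13.8 and 9.63 CPM in Vehicle replicates B, D and E. Vehicle replicate E lay below 3 of the AM6545 libraries. The log2 fold change was -0.26 (SE 0.17, edgeR adjusted p 0.489). It was -0.12 without Vehicle replicate B, -0.42 without Vehicle replicate E, -0.07 after the GC and length correction, and -0.0057 with the correction and the replicate block together.

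Of the 14 K2P genes with an entry in the gene table, the 6 that are not members were low or not counted. Kcnk5, which encodes TASK-2, was at 0.649 to 0.988 CPM in the AM6545 group and 0.644 to 0.927 CPM in the Vehicle group (log2 fold change 0.10, SE 0.30). Kcnk6, which encodes TWIK-2, was at 1.27 to 1.83 CPM and 1.37 to 2.60 CPM (log2 fold change -0.23, SE 0.27). Their edgeR adjusted p-values were 0.891 for Kcnk5 and 0.718 for Kcnk6. Kcnk7 and Kcnk15 did not pass the filter on low counts. Kcnk16 and Kcnk18 had 0 counts in every library, which allows up to 0.0182 CPM over all libraries together (3 counts, counting error only).

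Levels of different members were compared per transcript length, as CPM per kilobase. In Vehicle libraries Kcnk1 was highest, at 79.6 ± 3.17 (SD, n = 3). Kcnk4 (10.4 ± 0.763), Kcnk12 (10.3 ± 1.04) and Kcnk2 (9.21 ± 1.30) followed, and their ranges overlapped from each to the next. Kcnk13 (4.76 ± 0.433) and Kcnk3 (3.49 ± 1.15) overlapped with each other, and Kcnk10 (1.86 ± 0.231) and Kcnk9 (1.05 ± 0.236) were lowest (SD, n = 3 for each). Kcnk1 thus made up 64.7% to 67.1% of the summed level of the 8 members in Vehicle libraries.

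In AM6545 libraries the order was the same except for Kcnk12, which at 6.07 ± 0.345 CPM per kilobase (SD, n = 4) came after Kcnk2 at 8.28 ± 0.795 (SD, n = 4). Kcnk12 was chosen for its low level there, so its place in this order is a description. Kcnk12 reached at most 6.58 in AM6545 libraries and Kcnk2 was at least 7.15, but with the length of the most counted transcript Kcnk2 was at least 6.31 and the ranges overlapped. With that length Kcnk12 came before Kcnk4 in Vehicle libraries (means of 10.3 and 10.2), with overlap, and lay above Kcnk2 there without overlap. Kcnk1 took 67.4% to 70.4% of the summed level, above its share in every Vehicle library, but the choice of Kcnk12 enters this share. With Kcnk12 left out of the sum, the share of Kcnk1 was 72.2% to 74.9% in AM6545 libraries and 71.1% to 73.3% in Vehicle libraries, with overlap. The other 7 members summed to 91.8 to 106.1 CPM per kilobase in AM6545 libraries and 103.9 to 115.7 in Vehicle libraries, with overlap.

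**Figure D3:**
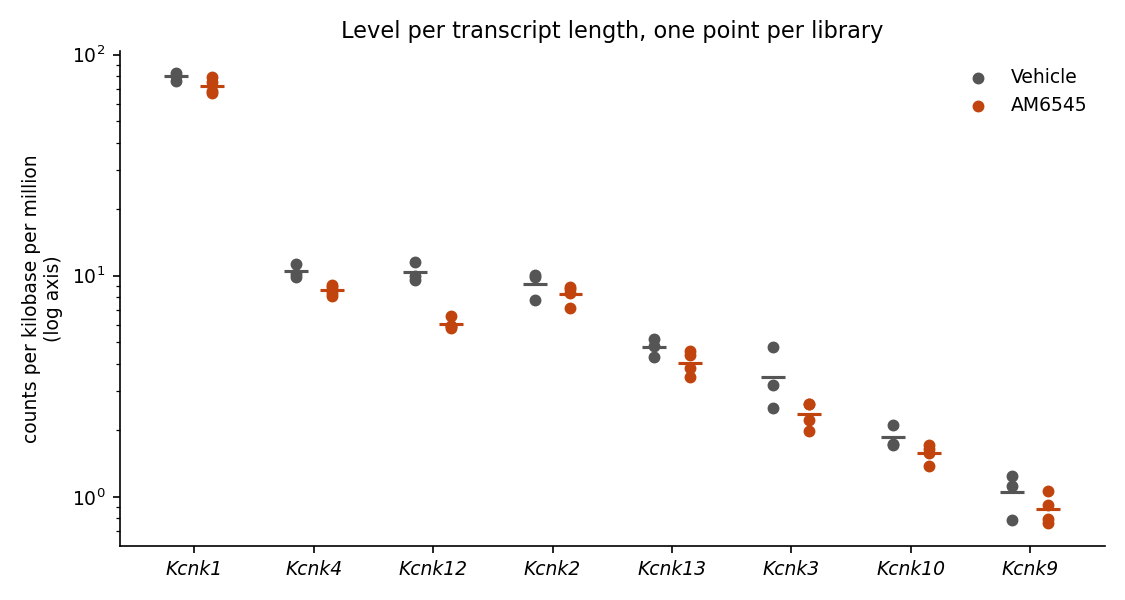
Level of each member per transcript length (CPM per kilobase, log axis), one point per library and a bar at each group's mean, in the order of the Vehicle means. Kcnk1 lies far above the rest, and Kcnk12 stands above Kcnk2 in the Vehicle means and below it in the AM6545 means.

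The members spanned a wide range of GC content, from 47.8% in Kcnk10 to 69.4% in Kcnk12. Across all genes tested, the decile with the lowest GC content had a median log2 fold change of 0.16, and the decile with the highest (58.4% to 72.8%) had -0.17, with 82.8% of its genes negative. Kcnk12 and Kcnk3 fell in this last decile, and both lay below its median. Kcnk9 and Kcnk10 fell in decile 4, whose median was 0.07, and were at -0.26 and -0.24. Every member other than Kcnk12 lay below the median of its own decile. Kcnk12 did too, but it was chosen for its low level in AM6545 libraries.

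**Figure D4:**
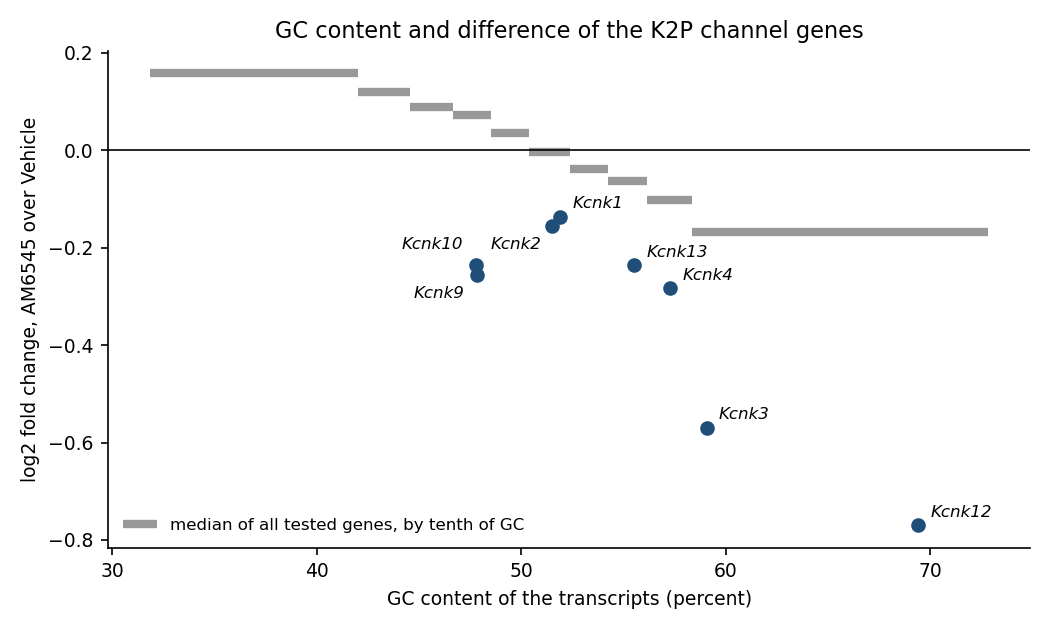
Log2 fold change (AM6545 over Vehicle) against the GC content of the transcripts for the 8 members (points), with the median of all tested genes in each decile of GC content (grey bars). The grey medians fall from 0.16 to -0.17, and each member lies below its bar. Kcnk12 was chosen for its low level in AM6545 libraries.

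The transcript table listed 31 transcripts of the 8 genes, of which 25 had counts and 21 were tested. Kcnk12, Kcnk3 and Kcnk9 were each counted as 1 transcript. Of the tested transcripts of the other 7 genes, 0 passed an adjusted p of 0.05 with edgeR, where 0.0177% of all transcripts passed. At an unadjusted p under 0.05, where 8.39% of all transcripts passed, there were 3: Kcnk2-205, Kcnk4-207 and Kcnk1-202, all lower in AM6545. Kcnk1-202 holds 2.12% of the counts of its gene and is named after its value was seen.

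Kcnk2-205 had the smallest p among them. It took 10.5%, 10.6%, 11.2% and 10.5% of the counts of Kcnk2 in AM6545 replicates B, D, E and F, and 16.3%, 18.6% and 28.3% in Vehicle replicates B, D and E. Every AM6545 library lay below every Vehicle library, but the transcript was singled out by its p, so this is a description. Its level was 2.81 ± 0.288 CPM (SD, n = 4) and 5.93 ± 0.798 CPM (SD, n = 3), a log2 fold change of -1.08 (SE 0.18, edgeR unadjusted p 0.000566, adjusted p 0.318). DESeq2 gave an adjusted p of 0.000281, and 14 other alternatives gave 0.248 to 0.882. How many of all transcripts DESeq2 called is not given here.

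Kcnk2-205 holds the same coding sequence as Kcnk2-202, the main transcript of the gene, both with 1236 coding bases. In the annotation Kcnk2-205 ends at the stop codon, whereas Kcnk2-202 goes on for 1853 bases, and they have 406 (Kcnk2-205) and 483 (Kcnk2-202) bases before the start codon. Only 49 of the runs of 31 bases in Kcnk2-205 (3.04%) are found in no other transcript of the gene, so its counts depend on how reads were divided among transcripts. Kcnk2-202 took 66.8% to 70.03% of Kcnk2 in AM6545 libraries and 51.7% to 70.8% in Vehicle libraries, with overlap. Kcnk2-201, with a coding sequence of 1245 bases, took 7.53% to 16.1% and 6.83% to 11.4%.

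Kcnk4 was spread over 4 transcripts of at least 5% of its counts. Kcnk4-201, the transcript with the longest coding part, took 43.8% to 58.9% in AM6545 libraries and 41.6% to 49.4% in Vehicle libraries. Kcnk4-207 averaged 2.84 ± 0.472 CPM after AM6545 (SD, n = 4) and 4.11 ± 0.362 CPM after vehicle (SD, n = 3), a log2 fold change of -0.54 (SE 0.21, edgeR unadjusted p 0.0348, adjusted p 0.569). Its libraries ranged from 2.43 to 3.37 CPM in AM6545 and 3.79 to 4.51 CPM in Vehicle, without overlap. As a share of Kcnk4 it took 16.1% to 21.4% in AM6545 libraries and 20.8% to 26.4% in Vehicle libraries, with overlap. Kcnk4-206 took 10.9% to 21.5% and 14.7% to 21.8%, and Kcnk4-205 took 7.001% to 10.2% and 7.08% to 9.11%. Kcnk4-201 has 2 runs of 31 bases found in no other transcript of the gene, and Kcnk4-206 has 0. The shares of these 2 transcripts thus depend on how reads were divided among transcripts. Kcnk4-207 has 1821 such runs (72.6%) and Kcnk4-205 has 396 (69.5%), though some of these may be shared with Catsperz.

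Kcnk10 had 3 such transcripts. Kcnk10-202 took 51.2% to 75.3% of the gene in AM6545 libraries and 57.0% to 91.1% in Vehicle libraries. Kcnk10-201 took 13.2% to 31.4% and 0% to 31.4%, and had 0 counts in Vehicle replicate B. Kcnk10-203 took 11.5% to 17.3% and 8.88% to 16.4%. None of the 3 separated the groups. Only 87 of the runs of 31 bases in Kcnk10-201 (3.35%) are found in no other transcript of the gene. Its counts, and with them the shares of Kcnk10, thus depend on how reads were divided among transcripts.

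The 3 counted transcripts of Kcnk13 share 1 coding sequence of 1218 bases and differ outside it. Kcnk13-204 differs from Kcnk13-202 by 14 extra bases before the start codon, and only 28 runs of 31 bases are particular to Kcnk13-202. Kcnk13-202 took 34.4% to 82.6% in AM6545 libraries and 53.1% to 100% in Vehicle libraries. Kcnk13-201 ranged from 0% to 53.8% and Kcnk13-204 from 0% to 40.4% over the 7 libraries, with 0 counts in 2 libraries for the first and in 3 for the second. Kcnk13-201 has 66 runs of 31 bases found in no other transcript of the gene, and Kcnk13-204 has 0. The make-up of Kcnk13 thus depends on how reads were divided among its transcripts. As counted, it varied more between replicates than between the groups.

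The share of the most counted transcript was compared between the groups for the 5 members with several counted transcripts, by a two-sided exact permutation test. The smallest p was that of Kcnk1-201, at 98.2% ± 0.438 after AM6545 (SD, n = 4) and 97.4% ± 0.129 after vehicle (SD, n = 3) (exact p 0.0857, adjusted over the 5 members 0.429). The other 4 had exact p-values of 0.314 to 0.6, with the smallest that the design allows being 0.0286.

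**Figure D5:**
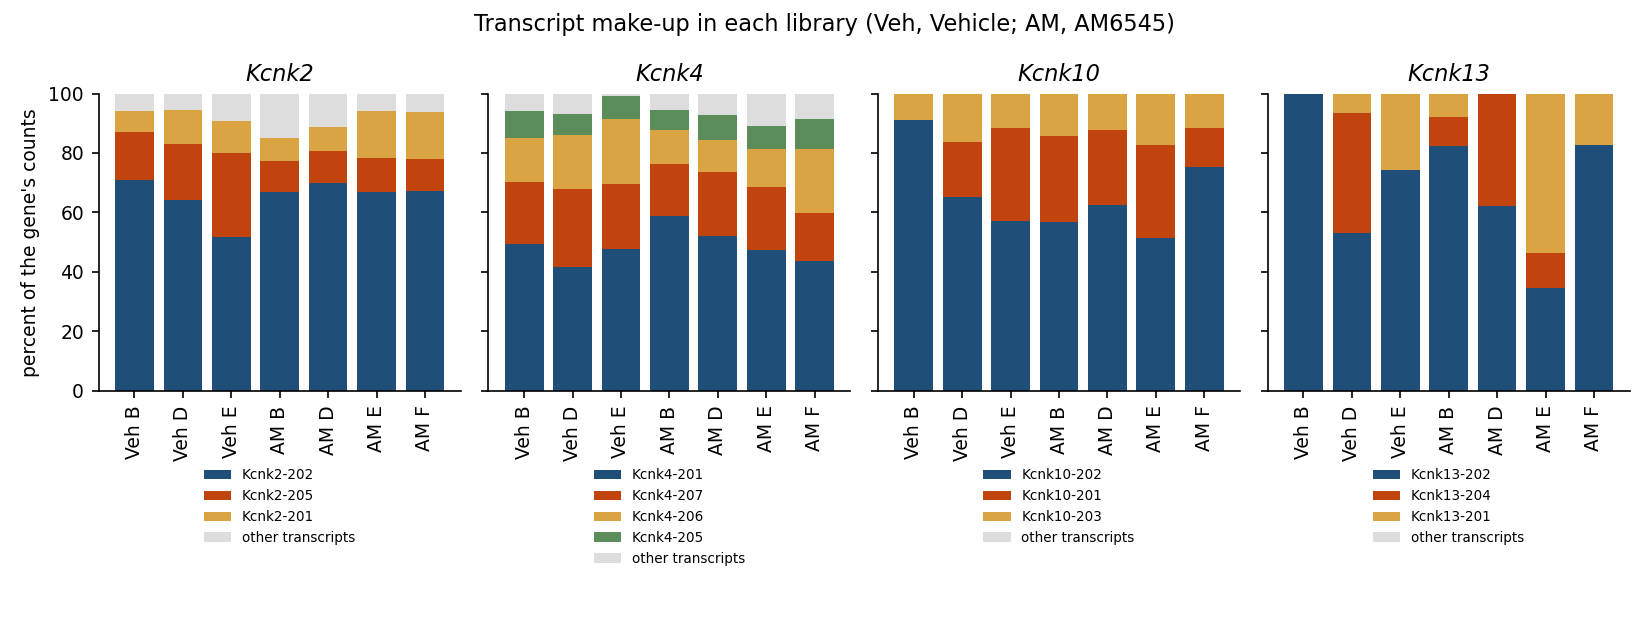
Share of each gene's counts (percent) taken by its named transcripts in each library, for Kcnk2, Kcnk4, Kcnk10 and Kcnk13, with remaining transcripts in grey. Kcnk2-205 takes 10.5% to 11.2% in AM6545 and 16.3% to 28.3% in Vehicle libraries, and the make-up of Kcnk13 varies among replicates of both groups.

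Genes reported to bind, traffic or regulate K2P channels were taken as a list of 27, of which 26 passed the filter on low counts. With edgeR, 0 of the 26 had an adjusted p under 0.05, and 5 had an unadjusted p under 0.05, 4 higher and 1 lower in AM6545 (5 of 26, where 14.6% of all genes passed in either direction). DESeq2 and limma-voom also gave 0. The median log2 fold change was 0.04, with 15 positive and 11 negative values, against 0.01 for all genes. The 3 smallest p-values belonged to signalling genes, all with positive values.

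Gnai3, an inhibitory G protein alpha subunit, averaged 43.9 ± 2.11 CPM after AM6545 (SD, n = 4) and 33.3 ± 3.86 CPM after vehicle (SD, n = 3), a log2 fold change of 0.40 (edgeR adjusted p 0.199). Gnai1, another alpha subunit of that class, averaged 257.7 ± 11.2 CPM after AM6545 (SD, n = 4) and 204.4 ± 26.8 CPM after vehicle (SD, n = 3), or 0.33 (edgeR adjusted p 0.235). Prkacb, a catalytic subunit of protein kinase A, which phosphorylates TREK channels, averaged 216.5 ± 17.5 CPM after AM6545 (SD, n = 4) and 171.3 ± 21.7 CPM after vehicle (SD, n = 3), or 0.34 (edgeR adjusted p 0.245). In each of the 3, all AM6545 libraries lay above all Vehicle libraries. They were named for the smallest p-values of the list, which favours such a separation, so this is a description.

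Other genes that set the resting conductance of neurons and glia, such as inward rectifiers, HCN channels, the sodium leak channel complex and sodium pump subunits, formed a list of 27. Of these, 26 passed the filter. With edgeR 0 had an adjusted p under 0.05, and 5 had an unadjusted p under 0.05, all lower in AM6545 (5 of 26, where 8.70% of all genes passed as lower and 14.6% in either direction). DESeq2 and limma-voom also gave 0. The median log2 fold change was -0.13, with 20 negative and 6 positive values. This median lay between those of all genes and of the 7 K2P members.

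Kcnj10, which encodes the glial inward rectifier Kir4.1, averaged 28.7 ± 6.22 CPM after AM6545 (SD, n = 4) and 44.8 ± 14.2 CPM after vehicle (SD, n = 3), a log2 fold change of -0.65 (edgeR adjusted p 0.256), with overlap. Hcn2, a channel of the hyperpolarisation-activated current, averaged 58.6 ± 3.10 CPM after AM6545 (SD, n = 4) and 69.6 ± 5.74 CPM after vehicle (SD, n = 3), or -0.25 (edgeR adjusted p 0.284), without overlap.

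The genes whose profile over the 7 libraries was nearest to that of Kcnk12 were found by the root mean square difference of log2 CPM, each gene centred on its own mean. They were Zfp383 (0.067), Rps26 (0.0999), Usp50 (0.105), Rps29 (0.109) and Atp5k (0.120). Zfp383 was low, at 1.04 to 1.18 CPM in AM6545 and 1.68 to 2.09 CPM in Vehicle libraries, so its profile is uncertain through counting error. Without Vehicle replicate B, 3 of the 5 were again among the nearest, and after the GC and length correction 0 of the 5 were. Of the runs of 31 bases in the main transcript, 46.4% for Rps26, 39.2% for Rps29, 20.5% for Atp5k and 17.4% for Usp50 occur in other genes, so the levels of these 4 are uncertain. The other members were farther away, from 0.25 for Kcnk4 and 0.26 for Kcnk3 to 0.34 for Kcnk9.

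Markers of cell types that a synaptoneurosome fraction can hold were summed per library beside these results. Principal neuron markers summed to 4392 to 4697 CPM in the AM6545 group and 4822 to 5528 CPM in the Vehicle group. Oligodendrocyte precursor markers summed to 273.8 to 289.2 and 303.8 to 332.5 CPM. Both sums were lower in AM6545 without overlap, as were 7.19% of all single genes. This share was not worked out for sums. Interneuron markers summed to 916.4 to 1040 and 1034 to 1212 CPM, and choroid plexus markers to 436 to 2065 and 1631 to 2888 CPM, both with overlap. Myelin markers summed to 17485 to 20630 and 17149 to 23438 CPM, and endothelial and mural markers to 83.8 to 125.5 and 86.8 to 118.6 CPM. DESeq2 and limma-voom each called 1 of the 10 myelin markers, Cldn11, where they called 205 and 118 of all 14654 genes. No marker of any of these lists was at 0. With an unadjusted p under 0.05 by edgeR, 3 of 11 principal neuron, 2 of 5 precursor and 3 of 8 interneuron markers passed. So did 2 of 13 astrocyte, 1 of 10 myelin, 0 of 8 choroid plexus and 0 of 9 endothelial and mural markers tested. All that passed were lower, where 8.70% of all genes passed as lower. None had an adjusted p under 0.05 with edgeR. The part of these cell types in the levels of the K2P genes was not tested.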

How the data were processed

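The deposited values are estimated counts per gene and per transcript for 7 libraries, not scaled to a common total. Salmon 1.5.2 and mm10 are named per the submitters' processing notes, with no role; which annotation and whether strand was used are not given in the sources used here. Per the labels' protocols, RNeasy columns gave the RNA and the SMARTer Ultra Low Input chemistry the libraries. Names, lengths, GC content, positions and sequences came from GENCODE M21, matched ignoring version numbers (22148 of 22248 genes, 101527 of 102392 transcripts). Deposited identifiers carry later versions, so gene models may differ.

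Counts were rounded and tested with edgeR 4.0.16 (TMM, filterByExpr, robust quasi-likelihood fit, no covariates; limma 3.58.1, R 4.3.3) with Benjamini-Hochberg adjustment over all genes or transcripts. The code was tested on simulated data. The GC and length correction subtracted a lowess trend (span 0.3) per library. Levels per kilobase used transcript lengths weighted by counts, or as an alternative the length of the most counted transcript.

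The members and lists were chosen with earlier results of these data known. Named were all K2P genes, their transcripts of at least 5% of the gene, the 3 smallest p-values of each channel-related list, and the 5 profiles nearest to Kcnk12; 1 gene of the resting conductance list that this rule names is not reported here. Alternatives were other scalings, filters and tools (DESeq2 1.42.0, limma-voom), a replicate block, the correction, and leaving out each library.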

Additional observations from a re-analysis of the deposited data

Results flagged for a closer look

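Within the AM6545 group, 22 values of members and their transcripts were examined for a single library at a distance from the rest, and 4 showed one, where chance gives about 1.1. Groups of 3 were not compared in this way. For Kcnk12, AM6545 replicate F had 12.97 CPM, while replicates B, D and E had 11.5 to 11.7. Kcnk2-202 took 70.03% of Kcnk2 in AM6545 replicate D, against 66.8% to 67.3% in the others. Kcnk2-205 took 11.2% of Kcnk2 in AM6545 replicate E, against 10.5% to 10.6% in the others, and all 4 lay below the Vehicle libraries. Kcnk4-206 took 21.5% of Kcnk4 in AM6545 replicate F, against 10.9% to 12.7% in the others and 14.7% to 21.8% in Vehicle libraries.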

How the results depend on the processing

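Each of the 7 members other than Kcnk12 was fitted under 19 alternatives. All 133 log2 fold changes were negative, the nearest to 0 being -0.0057 for Kcnk9, and 1 passed an adjusted p of 0.05, that of Kcnk3 without Vehicle replicate E. The count of members past the threshold was therefore 0 to 1 when libraries were left out one at a time, and 0 under every other alternative, including an adjusted p under 0.1. The log2 fold change of Kcnk12 ranged from -0.82 to -0.37, the latter with the GC and length correction (-0.38 with the replicate block as well). The count of member transcripts was 1 with DESeq2 (Kcnk2-205) and 0 otherwise. The difference in share, AM6545 minus Vehicle, was -9.63 percentage points for Kcnk10-202 and -10.4 for Kcnk13-202. Leaving out 1 library gave -16.7 to 0.38 for Kcnk10-202 and -21.7 to 1.77 for Kcnk13-202, and both changed sign without Vehicle replicate B. At an unadjusted p under 0.05 the counts were 5 for the partner list and 5 for the resting conductance list.

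Deviations of libraries from their group mean, for libraries with the same letter, correlated at -0.26 (B), -0.13 (D) and -0.18 (E) across genes. With different letters the correlations were -0.007 to 0.22. Deviations sum to 0 within each small group, so these values cannot show whether libraries with the same letter were paired. With the replicate block, in which AM6545 replicate F has no partner and adds nothing, 0 members and 0 member transcripts passed, and 1199 genes had an unadjusted p under 0.05 against 2134 without it. With 174 to 789 counts per library for members other than Kcnk1, the SE of the log2 fold changes of the 7 members was 0.09 to 0.20.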
